A study of Mus musculus with 10 samples.

Results

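The genes described here encode the machinery that brings nuclear-encoded proteins into mitochondria. They are every mouse gene whose symbol starts with Timm or Tomm, together with Mtx1, Mtx2, Mtx3, Samm50, Pam16, Dnajc15, Dnajc19, Grpel1, Grpel2, Pmpca, Pmpcb and Mipep. The rule found 40 symbols, of which 38 are protein-coding, and 31 of the 19659 genes measured on the arrays were members. Of the remaining protein-coding members, Tomm20, Tomm22, Tomm5, Timm23, Timm8a1 and Pam16 had no value on any array, and Timm10b shared its probe set with Dnhd1. The pseudogene Timm29-ps1 and the antisense transcript Tomm6os had no probe set named for them.

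Expression was measured in inguinal-femoral subcutaneous fat of 10 untreated, chow-fed female mice aged 14 weeks, with 1 array for each animal. FF mice carried the Fat-line allele in homozygous form at Fob3a, an obesity locus on chromosome 15, and VV mice were homozygous for the allele of the congenic V line, which the source labels call the lean-line allele, with 5 mice in each group, numbered here by their replicate numbers. All were F2 animals of a cross between the Fat line and the V line, and the V line had itself been bred by repeated backcrossing to the Fat line, so both groups share the Fat-line background outside the V-line segments. The values are log2 intensities normalised between arrays. Differences are FF minus VV, and the threshold is an adjusted p of 0.05 over all genes in limma.

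Most mitochondrial proteins are made in the cytosol and must cross the mitochondrial membranes. The TOM complex is the common entry gate of the outer membrane, behind which precursors part: those with a cleavable presequence pass the TIM23 channel and are pulled into the matrix by an ATP-driven motor, carrier proteins reach the inner membrane through small TIM chaperones and the TIM22 complex, and barrel-shaped proteins are built into the outer membrane by the SAM complex. In fat, thermogenic adipocytes are the cells richest in mitochondria, and their mitochondrial proteins enter by these same routes.

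Markers of other tissues stood out most in 2 mice. Liver markers were read as a mean log2 level relative to each gene's mean over the 10 mice. They lay between -0.72 and -0.34 in the FF mice. They reached 3.96 in VV mouse 1 and, less strongly, 0.72 in VV mouse 2, against -0.84 to -0.17 in the other VV mice. Skeletal muscle markers reached 1.99 in FF mouse 1, against at most 0.30 in any other mouse. Over all genes, VV mouse 1 correlated with the rest at a median r of 0.977, and each of the other 9 mice at 0.991 to 0.995.

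In FF fat 4 import genes rose past the threshold and none fell: Timm44, Tomm7, Tomm40l and Mtx1, each by 1.25-fold to 1.36-fold. The base over all genes was 0.621% of genes higher in FF past the threshold and 0.132% lower, against 12.9% of the import genes higher. The differences of the other 27 members did not pass. At an unadjusted p under 0.05, 22 of the 31 members were higher in FF (71.0%, against 10.2% of all genes) and 0 were lower (against 6.18% of all genes). The median difference was 0.23 over the members and 0.001 over all genes, and 29 of 31 members had a positive difference, against 50.3% of all genes. For 8 members, 25.8% of them, every FF mouse lay above every VV mouse, as was the case for 3.36% of all genes, and for none did every FF mouse lie below (1.34% of all genes). The members share the same mice, so these counts describe the list and carry no test of their own. In bulk tissue, fewer cells of a type and less RNA per cell cannot be told apart.

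The 4 calls depended on single mice, as did the number of calls over all genes. Their number was 0 when FF mouse 1, 2, 4 or 5 or VV mouse 2 or 5 was left out, and 1 (Tomm40l) without VV mouse 4. It was 3 without VV mouse 1, 3 without VV mouse 3 and 8 without FF mouse 3. Over all genes, 122 were higher in FF past the threshold with all mice. That number was 7 to 50 in the single-mouse fits with 0 import genes, and 16 without VV mouse 4. It was also below 122 without VV mouse 3 and only slightly above 122 without VV mouse 1. Without FF mouse 3, the fit with 8 import genes, it was far above 122 and the highest of the 10 single-mouse fits. The 22 genes at an unadjusted p under 0.05 became 19 to 23 over the same 10 fits, and the median difference stayed between 0.17 (without VV mouse 4) and 0.27 (without FF mouse 3). The 8 members whose groups did not overlap became 19 without FF mouse 3 and 8 to 11 without any other single mouse. Groups separate more easily with a mouse fewer. The share of all genes whose groups did not overlap was not computed for these fits, so the counts without overlap have no base beside them. FF mouse 1 and VV mouse 1, in which muscle or liver markers stood out most, were also left out together. VV mouse 2, with a weaker liver signal, was kept. In that fit 0 import genes passed the threshold and 22 had an unadjusted p under 0.05 with a higher FF mean. Over all genes, 25 were higher in FF past the threshold in that fit. A positive difference was found for 28 of 31, and the median difference was 0.23.

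**Figure D1:**
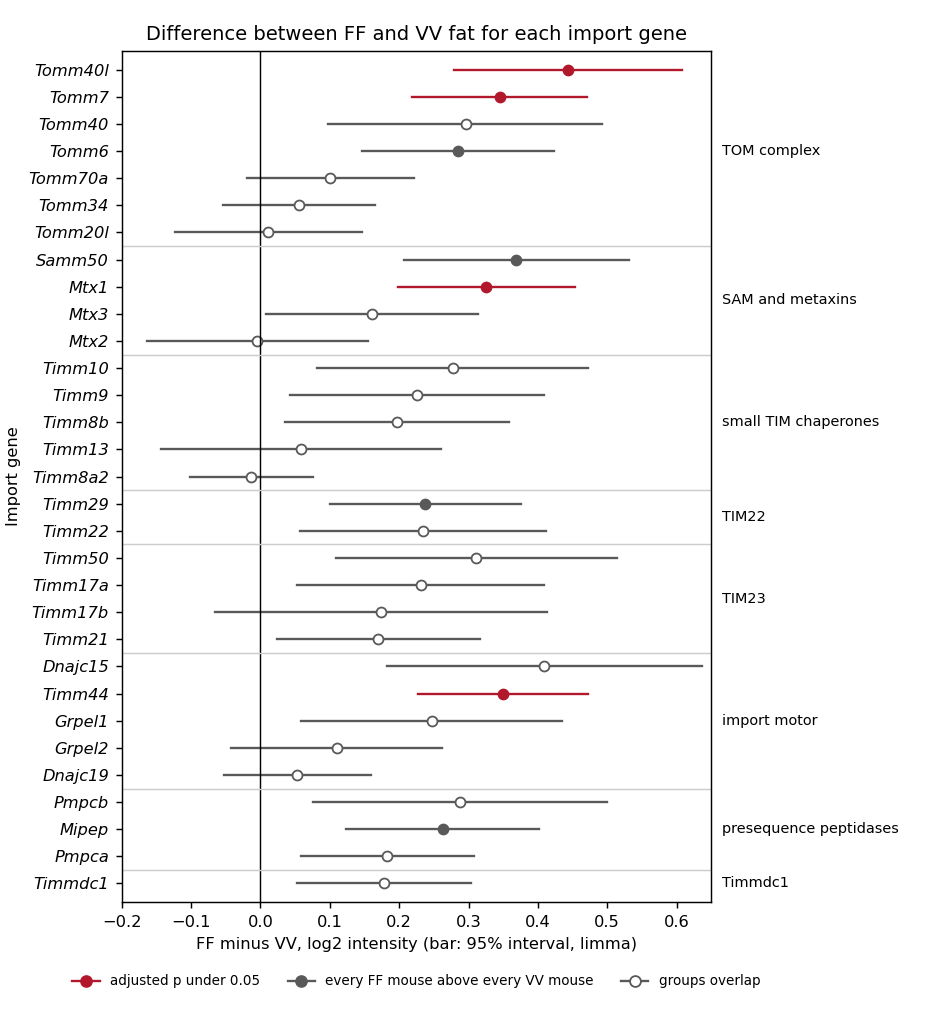
FF minus VV difference in log2 intensity for the 31 measured import genes, with its 95% interval from limma, grouped by role. Red marks the 4 genes past the adjusted threshold, filled points the 8 genes whose FF mice all lay above all VV mice, and open points genes whose groups overlap; 29 of 31 points lie right of 0.

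The TOM complex consists of receptors, a channel and small subunits that hold them together. The 7 measured members grouped under it include the cytosolic Tomm34 and the relatives Tomm40l and Tomm20l. All 7 had a positive difference, near 0 for Tomm20l, 2 rose and 4 had an unadjusted p under 0.05. For every role the base over all genes was 0.621% past the threshold and 10.2% unadjusted, both higher in FF. Tomm7 (chromosome 5 in RefSeq's GRCm38.p6 annotation), a small subunit that modulates the stability of the complex, had log2 intensities of 9.85, 9.87, 9.81, 9.91 and 9.83 in the FF mice, against 9.52, 9.50, 9.68, 9.35 and 9.51 in the VV mice. The lowest FF mouse, number 3, stood above the highest VV mouse, also number 3. Tomm7 rose by 0.35 ± 0.057 (SE), which is 1.27-fold, with a 95% interval from 1.16 to 1.39 (adjusted p = 0.0352, limma). Tomm40l (chromosome 1), a close relative of the channel protein, had the largest difference among the members, with 8.36, 8.48, 8.26, 8.42 and 8.36 in the FF mice, against 7.98, 7.94, 8.08, 7.67 and 7.98 in the VV mice. No FF mouse reached down to the VV range, and VV mouse 4 was the lowest of the 10. The difference was 0.44 ± 0.075 (SE), 1.36-fold, with a 95% interval from 1.21 to 1.52 (adjusted p = 0.0352).

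Tomm40 itself (chromosome 7), the channel through which nearly all precursors pass, had 9.15, 9.01, 8.79, 9.15 and 9.19 in the FF mice, against 8.84, 8.83, 8.85, 8.52 and 8.78 in the VV mice. FF mouse 3 lay inside the VV range while the other 4 FF mice lay above it, and the difference was 0.30 ± 0.090 (SE) with an adjusted p of 0.131. Tomm6 (chromosome 17), another small subunit, had 10.57, 10.54, 10.35, 10.44 and 10.53 in the FF mice, against 10.23, 10.21, 10.35, 10.05 and 10.19 in the VV mice. Its groups did not overlap, though FF mouse 3 and VV mouse 3 were nearly level, and the difference of 0.29 ± 0.063 (SE) had an adjusted p of 0.0641. Tomm70a, the receptor that takes carrier precursors from cytosolic chaperones, differed by 0.10 ± 0.055 (SE), and Tomm34, a cytosolic cochaperone of import, by 0.056 ± 0.050 (SE) (adjusted p = 0.402 and 0.630). Tomm20l (chromosome 12), a relative of the presequence receptor Tomm20, had 6.95, 6.94, 6.79, 6.89 and 6.87 in the FF mice, against 6.81, 6.76, 6.83, 6.93 and 7.06 in the VV mice. The FF mice lay within the range of the VV mice, with a difference of 0.011 ± 0.061 (SE), and the presequence receptors Tomm20 and Tomm22 had no value on these arrays.

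The SAM complex and the metaxins handle barrel proteins of the outer membrane. Of 4 measured members, 1 rose and 3 had an unadjusted p under 0.05. Mtx1 (chromosome 3), a metaxin of the outer membrane, had 9.58, 9.46, 9.33, 9.58 and 9.47 in the FF mice, against 9.13, 9.14, 9.25, 9.06 and 9.21 in the VV mice. The groups did not overlap, and the gap was narrowest between FF mouse 3 and VV mouse 3. Mtx1 rose by 0.33 ± 0.058 (SE), 1.25-fold, with a 95% interval from 1.15 to 1.37 (adjusted p = 0.0373). Samm50 (chromosome 15), the channel subunit of SAM, had 10.51, 10.53, 10.50, 10.74 and 10.69 in the FF mice, against 10.33, 10.38, 10.19, 10.18 and 10.05 in the VV mice. Every FF mouse lay above every VV mouse, with a difference of 0.37 ± 0.074 (SE) and an adjusted p of 0.0508, just short of the threshold. Samm50 was the only measured import gene on chromosome 15, which carries Fob3a and Deptor, the gene named in the title of the series. It starts 28.9 Mb past the end of Deptor. Whether FF and VV alleles differ under the probes of any import gene was not analysed here.

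The other metaxins had smaller differences. Mtx3 (chromosome 13) had 8.02, 8.21, 8.21, 8.01 and 8.12 in the FF mice, against 8.08, 8.10, 7.87, 7.85 and 7.86 in the VV mice. The groups overlapped, since VV mice 1 and 2 lay within the FF range, and the difference was 0.16 ± 0.069 (SE) (adjusted p = 0.275). Mtx2 (chromosome 2), which binds Mtx1 in the outer membrane, had 9.93, 9.94, 9.74, 9.89 and 9.79 in the FF mice, against 9.94, 9.65, 9.88, 10.03 and 9.82 in the VV mice. The highest mouse and the lowest mouse were both VV animals, and the difference was -0.005 ± 0.072 (SE), with an interval from -0.16 to 0.16.

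The promoters of the metaxins are shown because these related genes differ in their FF minus VV difference, from near 0 for Mtx2 to past the threshold for Mtx1, together with that of Timm8b, the only member whose window held the nuclear receptor motif searched. The windows are RefSeq's on GRCm38.p6, from 250 bases before to 50 bases after the annotated start, written 5′ to 3′. Capitals mark matches, on either strand, to CCGGAAG, the core letters bound by ETS factors such as GABPA, to AAGATGGC, the core of YY1 sites, or to TCAAGGTCA, a site of oestrogen-related receptors. No marked stretches overlap in the windows shown.
Mtx1 (chr3:89213858-89214157, reverse strand): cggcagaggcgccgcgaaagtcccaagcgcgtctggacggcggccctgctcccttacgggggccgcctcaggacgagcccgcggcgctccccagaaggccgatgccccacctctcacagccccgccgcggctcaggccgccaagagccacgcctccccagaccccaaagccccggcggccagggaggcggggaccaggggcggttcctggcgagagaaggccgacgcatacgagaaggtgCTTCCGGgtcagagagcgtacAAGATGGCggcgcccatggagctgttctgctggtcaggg
Mtx3 (chr13:92844518-92844817, forward strand): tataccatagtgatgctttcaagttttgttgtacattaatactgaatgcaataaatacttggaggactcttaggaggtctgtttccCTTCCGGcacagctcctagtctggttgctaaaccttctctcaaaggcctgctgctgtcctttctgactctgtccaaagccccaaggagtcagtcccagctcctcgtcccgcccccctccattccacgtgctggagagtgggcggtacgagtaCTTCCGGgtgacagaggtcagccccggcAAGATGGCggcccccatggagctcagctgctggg
Mtx2 (chr2:74825562-74825861, forward strand): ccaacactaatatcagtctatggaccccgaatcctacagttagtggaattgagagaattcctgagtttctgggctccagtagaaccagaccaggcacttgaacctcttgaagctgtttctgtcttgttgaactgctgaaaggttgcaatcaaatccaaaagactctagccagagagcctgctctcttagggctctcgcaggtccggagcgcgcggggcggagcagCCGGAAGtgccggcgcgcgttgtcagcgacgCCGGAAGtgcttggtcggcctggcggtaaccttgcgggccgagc
Timm8b (chr9:50603651-50603950, forward strand): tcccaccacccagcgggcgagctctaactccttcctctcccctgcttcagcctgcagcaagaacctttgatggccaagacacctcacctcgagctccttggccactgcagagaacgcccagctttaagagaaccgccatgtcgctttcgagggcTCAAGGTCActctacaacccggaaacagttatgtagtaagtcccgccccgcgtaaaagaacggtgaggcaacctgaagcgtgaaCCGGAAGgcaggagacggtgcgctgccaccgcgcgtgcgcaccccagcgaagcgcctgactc

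In Mtx1 the CCGGAAG match lay on the opposite strand with its first printed base 10 bases before the start, and the AAGATGGC match began at base 262 of the window. Mtx3 held CCGGAAG on the opposite strand at bases 87 and 239 and AAGATGGC at base 267. Mtx2 held CCGGAAG at bases 226 and 257 and Timm8b at base 239, with TCAAGGTCA at base 155. All the metaxin windows carry the ETS letters close to the start, while AAGATGGC occurred in those of Mtx1 and Mtx3 and not in that of Mtx2. Any part of either motif in the differences of these genes was not tested.

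Of the 31 measured members 27 had a promoter in the table, with 29 windows in all, and Tomm40l, Tomm7, Timm21 and Grpel2 were not in it. CCGGAAG occurred in 14 of the 29 windows (48.3%), belonging to 13 genes, against 8.86% of all 32851 windows and 11.9% of the windows of genes measured here. AAGATGGC occurred in the windows of Mtx1, Mtx3 and Timm50 (10.3%, against 2.75% of all windows), and TCAAGGTCA in that of Timm8b alone (3.45%, against 0.423%). The palindromic core of NRF1 sites occurred in none of the 29 windows and in 0.971% of all windows. The median GC content was 58.0% in the member windows and 52.7% in all windows, and its part in these shares was not tested. These matches describe letters in a window and not binding.

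Small TIM chaperones escort hydrophobic precursors across the intermembrane space. Of 5 measured members none passed the threshold, and 3 had an unadjusted p under 0.05. Timm8b (chromosome 9) had 10.84, 10.80, 10.68, 10.81 and 10.91 in the FF mice, against 10.67, 10.48, 10.80, 10.43 and 10.67 in the VV mice. VV mouse 3 lay at the level of the FF mice, and the difference was 0.20 ± 0.074 (SE) (adjusted p = 0.209). Timm9 and Timm10, the partners of the main chaperone ring, differed by 0.23 ± 0.083 (SE) and 0.28 ± 0.089 (SE) (adjusted p = 0.203 and 0.148). Timm13, the partner of Timm8 proteins, differed by 0.059 ± 0.092 (SE). Timm8a2 (chromosome 14) had 5.12, 4.99, 5.07, 5.11 and 5.08 in the FF mice, against 5.10, 5.05, 5.14, 5.07 and 5.07 in the VV mice. All 10 mice lay within a narrow band near the low end of the array's values, with a difference of -0.013 ± 0.040 (SE).

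The TIM22 complex inserts carrier proteins into the inner membrane. Timm29 (chromosome 9), a subunit of that complex, had 8.02, 7.98, 7.92, 8.22 and 7.94 in the FF mice, against 7.79, 7.82, 7.75, 7.67 and 7.85 in the VV mice. Its groups did not overlap, and the difference was 0.24 ± 0.062 (SE) (adjusted p = 0.0927). Timm22, the channel, differed by 0.23 ± 0.080 (SE) (adjusted p = 0.173), with VV mice 3 and 5 inside the FF range. Timmdc1, which shares the name of the family but is known as an assembly factor of respiratory complex I, differed by 0.18 ± 0.057 (SE) (adjusted p = 0.148).

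The TIM23 complex is the presequence channel of the inner membrane. None of its 4 measured members passed the threshold, 3 of them had an unadjusted p under 0.05, and the channel Timm23 had no value. Timm50 (chromosome 7), the receptor that hands precursors to the channel, had 9.46, 9.37, 9.20, 9.42 and 9.39 in the FF mice, against 9.19, 9.03, 9.22, 8.72 and 9.11 in the VV mice. FF mouse 3 lay just below VV mouse 3 while the other FF mice lay above all VV mice, and the difference was 0.31 ± 0.092 (SE) (adjusted p = 0.123). Timm17a (chromosome 1), a channel subunit, had 10.67, 10.72, 10.42, 10.70 and 10.68 in the FF mice, against 10.43, 10.43, 10.59, 10.17 and 10.42 in the VV mice. FF mouse 3 lay among the VV mice, and the difference was 0.23 ± 0.081 (SE) (adjusted p = 0.180). Timm17a was also the only measured member with a second probe set, which gave a difference of 0.22 against 0.23 for the one used.

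Its paralogue Timm17b (chromosome X) had 9.61, 9.55, 9.49, 9.73 and 9.67 in the FF mice, against 9.55, 9.40, 9.62, 9.01 and 9.60 in the VV mice. VV mouse 4 stood far below the other 9 mice, and the difference was 0.17 ± 0.11 (SE) with an interval from -0.065 to 0.41. Timm21, a subunit that links TIM23 to the TOM complex and the respiratory chain, differed by 0.17 ± 0.066 (SE) (adjusted p = 0.231).

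The import motor pulls presequence proteins into the matrix with the chaperone mtHsp70. Of 5 measured members 1 rose, and 3 had an unadjusted p under 0.05. Timm44 (chromosome 8), which docks mtHsp70 at the channel exit, had the smallest p of all members, with log2 intensities of 8.43, 8.37, 8.29, 8.54 and 8.43 in the FF mice, against 8.08, 7.999, 8.16, 7.98 and 8.10 in the VV mice. The groups were separate, and FF mouse 4 was the highest mouse. Timm44 averaged 8.41 ± 0.091 in FF against 8.06 ± 0.074 in VV (SD over 5 mice in each group) and rose by 0.35 ± 0.056 (SE), 1.27-fold, with a 95% interval from 1.17 to 1.39 (adjusted p = 0.0334, rank 34 by p among all genes). Dnajc15 (chromosome 14), a J protein that stimulates mtHsp70 at the channel, had 10.30, 10.17, 10.01, 10.37 and 10.47 in the FF mice, against 9.99, 9.84, 10.05, 9.58 and 9.82 in the VV mice. FF mouse 3 lay just below VV mouse 3, and the difference of 0.41 ± 0.10 (SE) had an adjusted p of 0.0843.

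Dnajc19 (chromosome 3), the related J protein, had 9.85, 9.84, 9.88, 9.82 and 9.89 in the FF mice, against 9.91, 9.82, 9.81, 9.66 and 9.80 in the VV mice. VV mouse 1 was the highest of all mice, no FF mouse lay outside the VV range, and the difference was 0.053 ± 0.048 (SE). Grpel1 (chromosome 5), a nucleotide exchange factor of mtHsp70, had 9.77, 9.85, 9.57, 9.96 and 9.88 in the FF mice, against 9.69, 9.63, 9.66, 9.37 and 9.44 in the VV mice. FF mouse 3 lay below VV mice 1, 2 and 3, and the difference was 0.25 ± 0.086 (SE) (adjusted p = 0.177). Grpel2 (chromosome 18), its paralogue, had 9.42, 9.53, 9.54, 9.45 and 9.44 in the FF mice, against 9.52, 9.38, 9.45, 9.12 and 9.37 in the VV mice. The groups overlapped, with a difference of 0.11 ± 0.069 (SE) (adjusted p = 0.478).

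Presequences are removed in the matrix by the processing peptidase MPP, a pair of Pmpca and Pmpcb, and some precursors are trimmed again by Mipep. None of the 3 passed the threshold and all 3 had an unadjusted p under 0.05. Mipep (chromosome 14) had 9.19, 9.21, 9.22, 9.44 and 9.36 in the FF mice, against 9.12, 8.93, 9.09, 8.93 and 9.05 in the VV mice. Every FF mouse lay above every VV mouse, with FF mouse 1 closest to VV mouse 1, and the difference was 0.26 ± 0.063 (SE) (adjusted p = 0.0749). Pmpcb (chromosome 5), the catalytic subunit, had 9.59, 9.47, 9.24, 9.67 and 9.65 in the FF mice, against 9.33, 9.13, 9.47, 9.13 and 9.12 in the VV mice. FF mouse 3 lay below VV mice 1 and 3, and the difference was 0.29 ± 0.096 (SE) (adjusted p = 0.165). Pmpca (chromosome 2), the subunit that recognises the presequence, had 10.47, 10.45, 10.26, 10.52 and 10.42 in the FF mice, against 10.30, 10.19, 10.28, 10.15 and 10.30 in the VV mice. FF mouse 3 was again within the VV range, and the difference was 0.18 ± 0.056 (SE) (adjusted p = 0.136).

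**Figure D2:**
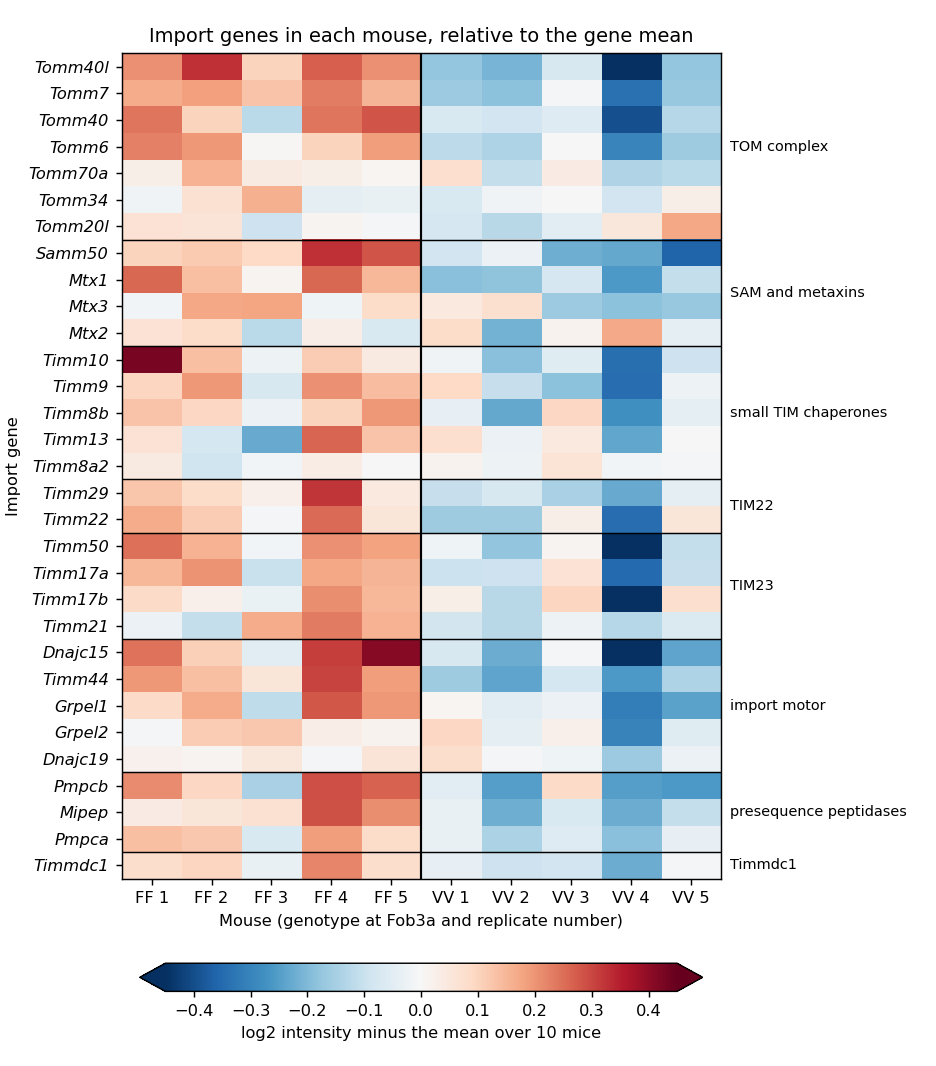
Log2 intensity of each measured import gene (down the page, by role) in each mouse (FF left, VV right), relative to the gene's mean over the 10 mice, with values beyond the ends of the colour bar drawn in its end colours. The column of VV mouse 4 is the lowest of all 10 for 26 of 31 genes, and that of FF mouse 3 the lowest among the FF mice for 23. The same counts over all genes were not computed.

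Many members were high or low in the same mice. VV mouse 4 was the lowest of all 10 mice for 26 of the 31 genes, and FF mouse 3 was the lowest FF mouse for 23. FF mouse 4 was the highest mouse of all for 14 genes, and VV mouse 3 was the highest VV mouse for 14. The same counts over all genes were not computed, so these have no base beside them. The mean of the 31 genes, each relative to its own mean over the 10 mice, was 0.12, 0.10, -0.002, 0.18 and 0.13 in the FF mice, against -0.040, -0.12, -0.027, -0.25 and -0.087 in the VV mice, in replicate order. FF mouse 3 and VV mouse 3 were therefore the closest pair across the groups.

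Related genes were then compared within each mouse, which removes whatever shifts both genes of a pair alike on an array. Such a difference between probe sets has no meaning as a level, and only its change between the groups was tested, over 8 pairs, by a two-sided exact permutation test whose smallest p is 0.00794 (252 assignments of 5 mice against 5). A pair that alone has that smallest p gets an adjusted p of 0.0635 over the 8 pairs, so the design could not bring a single pair past 0.05. In each pair the gene with the larger FF minus VV difference stands first, so all 8 pair differences are positive by construction. No pair had an adjusted p under 0.05. Mtx1 minus Mtx2 was higher in FF by 0.33, with every FF mouse above every VV mouse, and had the smallest p the test allows (exact p = 0.00794, adjusted p = 0.0635). Dnajc15 minus Dnajc19 was higher in FF by 0.36, with FF mouse 3 inside the VV range (exact p = 0.0159, adjusted p = 0.0635). Tomm40l minus Tomm40 differed by 0.15 (exact p = 0.0476, adjusted p = 0.127). For Timm17a minus Timm17b, Grpel1 minus Grpel2, Pmpcb minus Pmpca, Mtx1 minus Mtx3 and Mtx3 minus Mtx2 the differences were 0.057, 0.14, 0.10, 0.16 and 0.17, with adjusted p between 0.272 and 0.468 in the exact test. Without FF mouse 3, Mtx1 minus Mtx2 (0.34), Dnajc15 minus Dnajc19 (0.43) and Grpel1 minus Grpel2 (0.21) passed, with adjusted p of 0.0423, 0.0317 and 0.0317 in the exact test of 9 mice. Without any other single mouse none of the 8 pairs passed. Over all 10 such fits the difference ranged from 0.26 to 0.38 for Mtx1 minus Mtx2, from 0.31 to 0.43 for Dnajc15 minus Dnajc19 and from 0.091 to 0.21 for Grpel1 minus Grpel2, with an adjusted p in the exact test of up to 0.0952, 0.127 and 0.423.

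**Figure D3:**
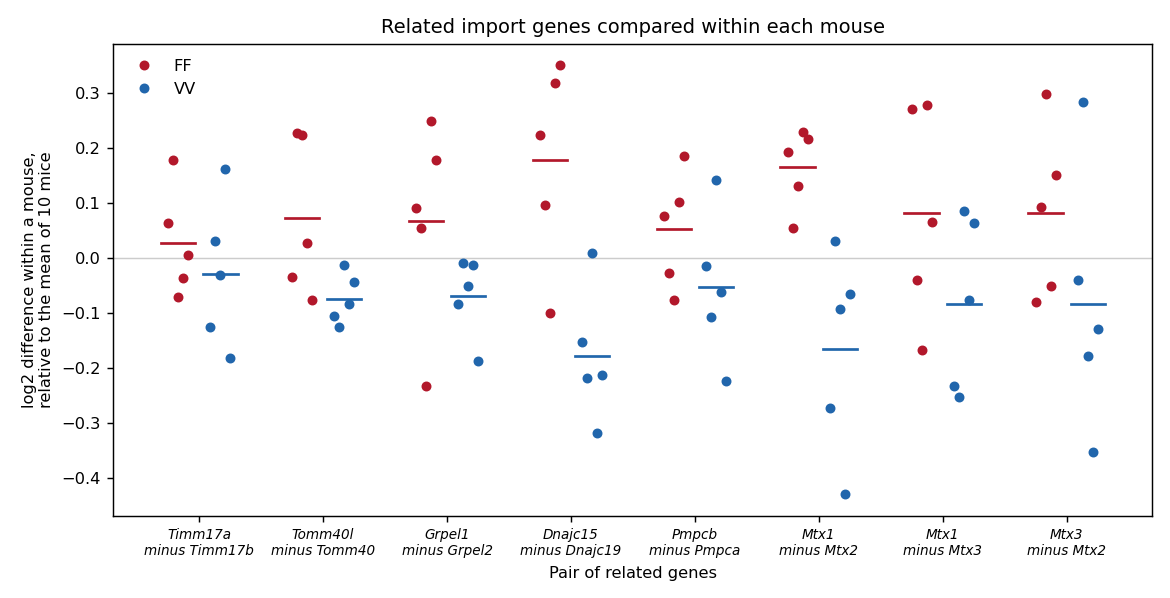
Log2 difference between related import genes within each mouse, relative to the mean of the 10 mice for that pair, with FF left and VV right in each pair and bars at the group means. The groups are separate for Mtx1 minus Mtx2, where the means differ by 0.33, and overlap in the other 7 pairs. In each pair the gene with the larger FF minus VV difference stands first, which fixes the sign.

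Genes of the same pathway outside the family were taken from a list of 20, of which 16 were measured and Immp1l, Immp2l, Hspe1 and Hsp90ab1 were not. Of these 1 rose (6.25%, against 0.621% of all genes) and none fell. At an unadjusted p under 0.05, 11 had a higher FF mean (68.8%, against 10.2% of all genes). Oxa1l, the insertase of the inner membrane, had 11.11, 11.18, 11.15, 11.13 and 11.17 in the FF mice, against 11.001, 10.89, 10.99, 10.94 and 10.95 in the VV mice. Its groups were separate, and it rose by 0.19 ± 0.038 (SE) (adjusted p = 0.0495). That call was lost without any single mouse except FF mouse 3. Without FF mouse 3, 6 genes of the list rose, but the number over all genes was then also far above the 122 of the main fit. Hspa9, which encodes mtHsp70 itself, differed by 0.26 ± 0.054 (SE), its cochaperone Dnaja3 by 0.38 ± 0.079 (SE), the matrix protease Lonp1 by 0.34 ± 0.074 (SE) and Dnajc11, a partner of the SAM complex, by 0.29 ± 0.070 (SE). For these 4 genes the adjusted p in limma was 0.0562, 0.0547, 0.0593 and 0.0750, and for each every FF mouse lay above every VV mouse. That was so for 5 of the 16 genes (31.2%, against 3.36% of all genes). The 5 are the genes named here, which were picked by their small p, so their separation adds no support. The median difference of the 16 genes was 0.22.

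Among regulators of mitochondrial biogenesis and genes that follow mitochondrial content, 9 of 10 of them measured, the coactivators Ppargc1a and Ppargc1b rose by 0.99 ± 0.14 (SE) and 0.61 ± 0.11 (SE) (adjusted p = 0.0219 and 0.0352). Without VV mouse 2, FF mouse 5 or VV mouse 5 neither passed, and Ppargc1b also did not pass without FF mouse 1, FF mouse 4, VV mouse 3 or VV mouse 4. Tfam, which maintains mitochondrial DNA, differed by 0.28 ± 0.062 (SE), and Cs, the citrate synthase often used to gauge mitochondrial content, by 0.33 ± 0.084 (SE) (adjusted p = 0.0687 and 0.0846). Vdac1, the main outer membrane pore and also used to gauge mitochondrial content, differed by 0.14 ± 0.064 (SE) (adjusted p = 0.297). The factors whose motifs were searched did not pass the threshold. They differed by 0.062 for Gabpa, 0.013 for Yy1, 0.025 for Nrf1 and 0.14 for Esrra, with adjusted p from 0.526 to 0.951 in limma. Any part of these factors in the import result was not tested.

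Other mitochondrial gene families are given beside the import genes without a test between lists. All 41 measured Nduf genes of complex I had a positive difference, with a median of 0.31, 1 past the threshold and 34 at an unadjusted p under 0.05. All 73 measured Mrpl and Mrps genes of the mitochondrial ribosome had a positive difference as well, with a median of 0.22, 1 past the threshold and 41 at an unadjusted p under 0.05. Over all genes 0.621% were higher in FF past the threshold and 10.2% at an unadjusted p under 0.05. In these families FF mouse 3 and VV mouse 3 overlapped: their mean levels were -0.038 and -0.006 for the Nduf genes, and -0.024 and -0.001 for the ribosomal genes. VV mouse 4 was the lowest mouse in both, at -0.39 and -0.29.

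Marker genes of several cell types were read in the same mice. White adipocyte markers identified the tissue in both groups, with Adipoq at 13.34 ± 0.069 in FF against 13.38 ± 0.065 in VV (SD over 5 mice in each group) and Fabp4 at 13.35 ± 0.040 in FF against 13.30 ± 0.051 in VV (SD over 5 mice in each group), and 0 of 9 measured markers passed the threshold. At an unadjusted p under 0.05 in limma, Plin1 (0.081) and Lipe (0.12) were higher in FF and Lep (-0.24) was lower. The mean level of the 9 markers lay between -0.034 and 0.066 in FF and between -0.055 and 0.058 in VV. Thermogenic adipocyte markers rose for 5 of 10, against 0.621% of all genes. Ucp1 was at 11.12 ± 0.76 in FF against 7.16 ± 0.74 in VV (SD over 5 mice in each group). The mean level of the 10 markers ran from 0.35 to 1.33 in FF and from -1.25 to -0.51 in VV. FF mouse 3 was the lowest FF mouse, FF mouse 4 the highest mouse and VV mouse 4 the lowest mouse for these markers, as for the import genes. Of 9 measured leukocyte markers 1 fell past the threshold (Ptprc, -0.68 ± 0.13 (SE)), against 0.132% of all genes. At an unadjusted p under 0.05, 8 had a lower FF mean, against 6.18% of all genes. The mean level of the 9 leukocyte markers ran from -0.33 to -0.049 in FF and from 0.067 to 0.46 in VV. Mammary epithelial markers ranged from -0.072 to 0.028 in FF and from -0.016 to 0.067 in VV. The part of any of these cell types in the import result was not tested.

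**Figure D4:**
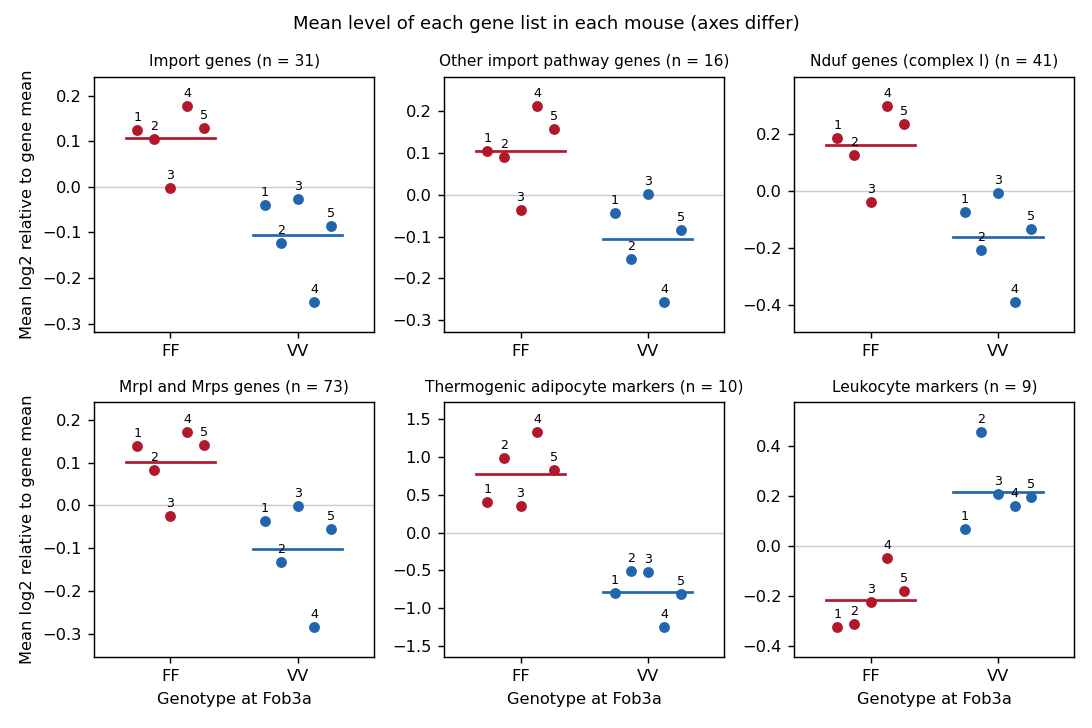
Mean log2 level of 6 gene lists in each mouse, relative to each gene's mean over the 10 mice, with FF left, VV right, replicate numbers above the points and bars at the group means. FF mouse 3 and VV mouse 4 are the lowest of their groups in the import genes, the other mitochondrial lists and the thermogenic markers; the vertical axes differ between panels.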

How the data were processed

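The authors deposited 1 table of log2 intensities, made with RMA per the submitters' processing notes. Its version and genome build were not given in the sources used here. Of 35557 probe sets 25689 had a value on all 10 arrays and 9868 on none. Log2 values spanned 3.56 to 14.22, with medians of 7.15 to 7.17 on FF arrays and 7.18 to 7.21 on VV arrays, and the number of arrays limits the precision. Probe sets naming 1 gene (20777) were kept, 232 naming several and 4680 unnamed ones left out, and a gene was read by its probe set with the highest mean. Symbols and chromosomes came from RefSeq on GRCm38.p6.

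FF and VV were compared with limma 3.58.1 in R 4.3.3 (lmFit and eBayes, no covariate, two-sided, Benjamini-Hochberg over 19659 genes, threshold 0.05) and the procedure was tested on simulated data. Replicates are separate animals per the labels. Each mouse's deviations from its group means were correlated over all genes between same-numbered FF and VV mice. These correlations were -0.26 to 0.10, so the numbers were not taken as pairs. Named are all members; values in every mouse are given for the 12 members with the smallest p, the 3 lowest differences and the related pairs, and for Timm8b, added after its values were seen because its promoter is printed. Of the other pathway genes the 5 with the smallest p are named. The members and lists were chosen with earlier results of these data known. Alternatives were leaving out each mouse, leaving out FF mouse 1 and VV mouse 1 together, a replicate block, quantile normalisation, centring, 2 intensity filters, probe set means, an intensity trend with robust settings, and array weights; the pair tests and the figures for other lists under these settings were added after seeing the data. Plots used matplotlib 3.10.9 (Python 3.11.15).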

Additional observations from a re-analysis of the deposited data

Results flagged for a closer look

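Within each group of 5 mice, the gap between the highest or lowest mouse and its nearest neighbour was compared with the whole range of the group for the 31 genes. Of 62 groups 3 stood past the limit of 0.71, where chance flags about 1 in 20. Timm17a was 10.42 in FF mouse 3, while the other FF mice lay between 10.67 and 10.72. Tomm70a was 8.85 in FF mouse 2, while the other FF mice lay between 8.70 and 8.73. Tomm40 was 8.52 in VV mouse 4, while the other VV mice lay between 8.78 and 8.85.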

How the results depend on the processing

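The number of import genes past the threshold, 4 with all mice, ranged from 0 to 8 when a mouse was left out. It was 0 without FF mouse 1 and VV mouse 1 together, 7 among genes above the median of intensity and 0 with the replicate block, where the median difference was 0.23. It was 3 with quantile normalisation and 4 with probe set means. With the 25th percentile filter or the robust trend it was 5, and with centring or array weights 6. The number over all genes higher in FF past the threshold, 122 with all mice, moved as well. It was 25 without FF mouse 1 and VV mouse 1 together, 5 with the replicate block and above 122 among genes above the median of intensity. For the other import genes the number past the threshold, 1 with all mice, ranged from 0 to 6 when a mouse was left out. It was 0 with the replicate block, with quantile normalisation and without FF mouse 1 and VV mouse 1. It was 4 with centring or above the 25th percentile of intensity, 5 above the median of intensity and 6 with array weights. These counts are to be read beside the number over all genes, which also moved. Sign changes occurred in 4 genes of near-zero difference. When a mouse was left out, Mtx2 ranged from -0.059 to 0.037, Timm8a2 from -0.025 to 0.008, Tomm20l from -0.018 to 0.056 and Yy1 from -0.028 to 0.045. With arrays centred on their median Mtx2 was 0.016 and Timm8a2 0.008. With array weights Mtx2 was 0.029 and Yy1 -0.001, with quantile normalisation Yy1 was -0.016, and without FF mouse 1 and VV mouse 1 together Tomm20l was -0.021. The cause of these changes was not tested. The counts at an unadjusted p under 0.05 and the median differences stayed within 1.5 times or within the spread between mice under every alternative run. The intensity filters left 30 and 28 of the 31 members.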
